A study of Mus musculus with 48 samples.

Results

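Chromosome 1 held 153725 of the 2362990 peaks that lie on the 20 chromosomes 1 to 19 and X in 48 deposited ATAC-seq peak lists of mouse ER-Hoxb8 clones. Peaks of any list that overlapped by at least 1 bp were merged, which gave 17473 regions on chromosome 1 out of 257929 in all, or 6.77%. These regions ran from position 3042755 to position 197168146 in mm9 coordinates and had a median width of 143 bp. The chromosome was chosen by the ranks of its peaks' first scores: they stood higher in the progenitors of clones 1, 6 and 13 than in other progenitors, while the monocytes of these clones showed no such shift. Values of these 3 progenitors against the other progenitors are therefore given as a description, without a test.

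Each of 24 clones, numbered 1 to 13 and 15 to 25, gave 1 progenitor and 1 monocyte library, and the series states that the 2 stages are clonally paired. All clones are ER-Hoxb8 cells from mouse bone marrow grown in RPMI with serum, antibiotics and SCF. The progenitors are labelled as GMP cells and carry the word Plus in their titles, and the monocytes are labelled as monocytic cells and carry the word Minus. The labels name no strain, sex, age or further genotype, and every value of a clone at a stage rests on 1 library of 1 clonal line.

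ER-Hoxb8 cells are myeloid progenitors that keep dividing while a Hoxb8 protein fused to an oestrogen receptor domain is held active, and they mature when the hormone is withdrawn. ATAC-seq uses a transposase that cuts open chromatin, so a peak marks DNA such as a promoter or an enhancer that proteins can reach. The number of tags in a peak depends both on how accessible each DNA copy is and on how many copies of that DNA the cells carry. From peak lists of bulk libraries these cannot be told apart, nor can a change in all cells and a change in some of them. The stage labels were not checked against marker genes, and the regions carry coordinates only, because no mm9 annotation or genome was used here.

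Lists differed widely in length, from 218 peaks on the 20 chromosomes in the monocyte of clone 22 to 136063 in the progenitor of clone 19. Every peak has a pair of scores from the authors. The lower values of the first score lie on a ladder whose step is read here as 1 tag. Of the values below 40 steps, 90.9% in the monocyte of clone 25 and 96.1% to 100% in the other lists were whole multiples of the step, to within 0.1 step. Depth relative to the median list, from these steps, ran from 0.0916 to 5.20. The 42 lists with at least 10000 peaks, 24 of progenitors and 18 of monocytes, entered the comparisons of ranks. The monocytes of clones 15, 17, 19, 22, 23 and 24 did not.

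The regions of chromosome 1 were mostly shared by few lists. Of the 17473 regions, 6674 (38.2%) were in 1 list, against 37.8% of the regions of the other chromosomes. At least 24 lists held 1872 of them. The 42 longer lists all held 199 of them, out of 3257 such common regions in the genome. Only these common regions could be ranked in every list, so the rank results below describe 199 of 17473 regions, those that are peaks everywhere.

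In the progenitors of clones 1, 6 and 13, chromosome 1 took a larger part of the peak list than in any other progenitor. It held 7.10% of the peaks of clone 1 (4787 of 67437), 7.52% of those of clone 6 (6641 of 88283) and 7.46% of those of clone 13 (4493 of 60264). Among the other 21 progenitors the share ran from 5.76% in clone 11 to 6.72% in clone 16, with a median of 6.42% and a mean of 6.39% ± 0.243 (SD, n = 21). The 3 values lie above that whole range. Their monocytes had 6.41%, 5.95% and 6.05%, inside the range of 5.41% to 6.51% of the 13 monocytes of clones 1 to 13.

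**Figure D1:**
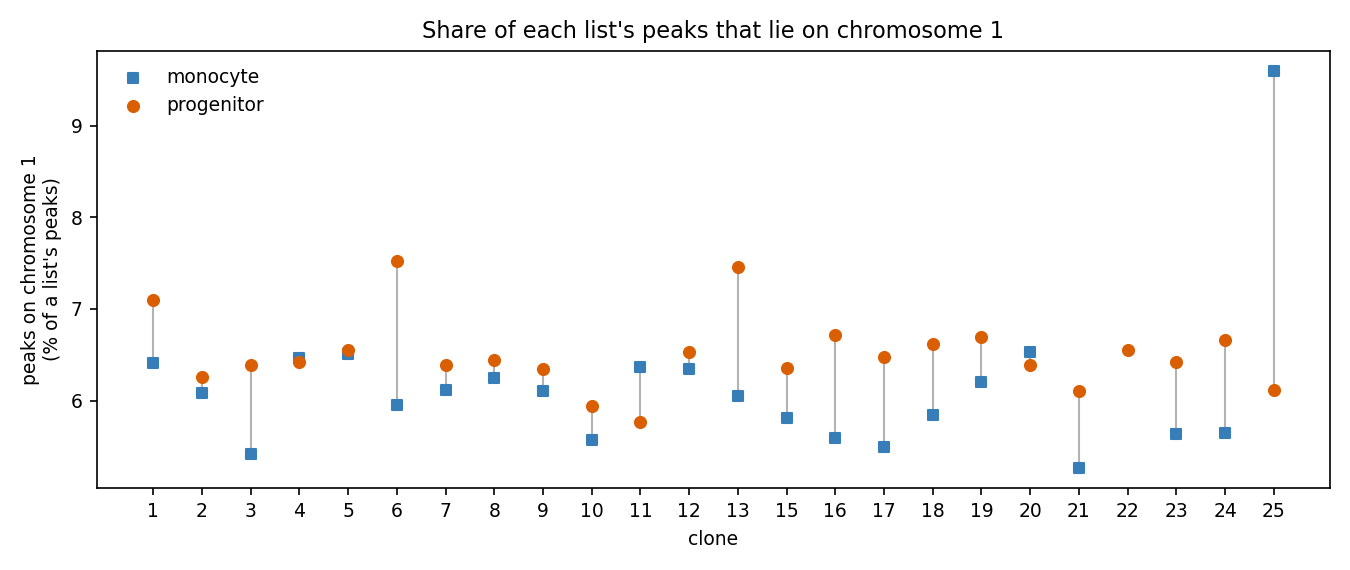
Share of each list's peaks on the 20 chromosomes that lie on chromosome 1 (%), for the progenitor (circles) and monocyte (squares) of each clone, joined by a line; the axis does not start at 0, and the monocyte of clone 22 is not drawn because its list has 218 peaks. The progenitors of clones 1, 6 and 13 stand at 7.10%, 7.52% and 7.46%, and the monocyte of clone 25 stands highest at 9.60%.

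The excess in these progenitors was largest among the strongest peaks. Of the 1000 peaks of highest first score, 10.7% lay on chromosome 1 in clone 1, 13.4% in clone 6 and 17.0% in clone 13, against 4.30% to 9.30% in the other progenitors. Among the next peaks, down to rank 10000, the 3 clones had 6.14%, 6.19% and 5.32%, inside the others' range of 5.18% to 6.31%. Between ranks 10000 and 20000, clone 6 with 7.06% and clone 13 with 6.98% lay above the others' highest value of 6.69%, and clone 1 with 6.16% did not. Beyond rank 20000 the shares were 7.40%, 7.68% and 7.81%, all above the others' highest value of 6.99%.

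Peaks that a single list held were also concentrated on chromosome 1 in these clones. Of the 1137 regions found only in the progenitor of clone 1, 14.4% lay on chromosome 1. The same share was 13.3% of 735 regions for clone 6 and 14.1% of 383 for clone 13. In the other 21 progenitors it ran from 3.25% to 8.16% with a median of 6.07%. These single-list regions were weak peaks. Among regions held by 1 progenitor list, the chromosome 1 medians were 13.0, 10.0 and 11.0 tags in clones 1, 6 and 13. The median peak of the same lists had 32, 28 and 34 tags. High shares of single-list regions also occurred in monocytes, with 14.1% of 156 regions in clone 4 and 12.9% of 170 in clone 5. Chromosome 1 held 6.46% and 6.51% of all peaks in those lists. The median of the monocytes other than clone 25 was 5.88%.

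Counting regions in no other progenitor list, 342 regions of chromosome 1 were held by 1 of the 3 progenitors, 8 by a pair of them and 0 by all 3. On the other chromosomes 2141 such regions were held by 1, 37 by a pair and 1 by all 3. Of the 342 regions, 2 were in a monocyte list of clones 1, 6 or 13, as were 17 of the 2141 such regions of other chromosomes. Monocyte lists of clones 1, 6 and 13 were shorter, with 24745, 24616 and 27497 peaks. The part of list length in these counts was not tested.

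To compare strength rather than presence, each of the 3257 common regions was ranked by first score within its list, as a percentile, and set against the median percentile of the same region over the lists of its stage. The shift of a chromosome is the median of these differences in percentile points. For chromosome 1 it was 8.44 in the progenitor of clone 1, 14.9 in clone 6 and 18.1 in clone 13. The next progenitors were clone 5 with 2.12, clone 16 with 1.70 and clone 18 with 1.31, and the lowest was clone 10 with -7.48. The SD over the other 21 was 2.16.

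On the log2 scale of the score, after centring each list on its median, the shift was 0.21 in clone 1, 0.36 in clone 6 and 0.43 in clone 13, that is 1.16-fold, 1.29-fold and 1.34-fold. The other progenitors ran from -0.19 in clone 10 to 0.13 in clone 16. Chromosome 1 had the highest shift of the 20 chromosomes in 4 of 24 progenitors, the 3 of interest and clone 5, and in 0 of 18 monocytes. In clone 6 the other 19 chromosomes lay between -2.51 and 0.70 points, and in clone 13 between -6.28 and 2.06. In clone 1 they lay between -4.16 and 2.87, a range in which chromosome 1 stands out less.

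**Figure D2:**
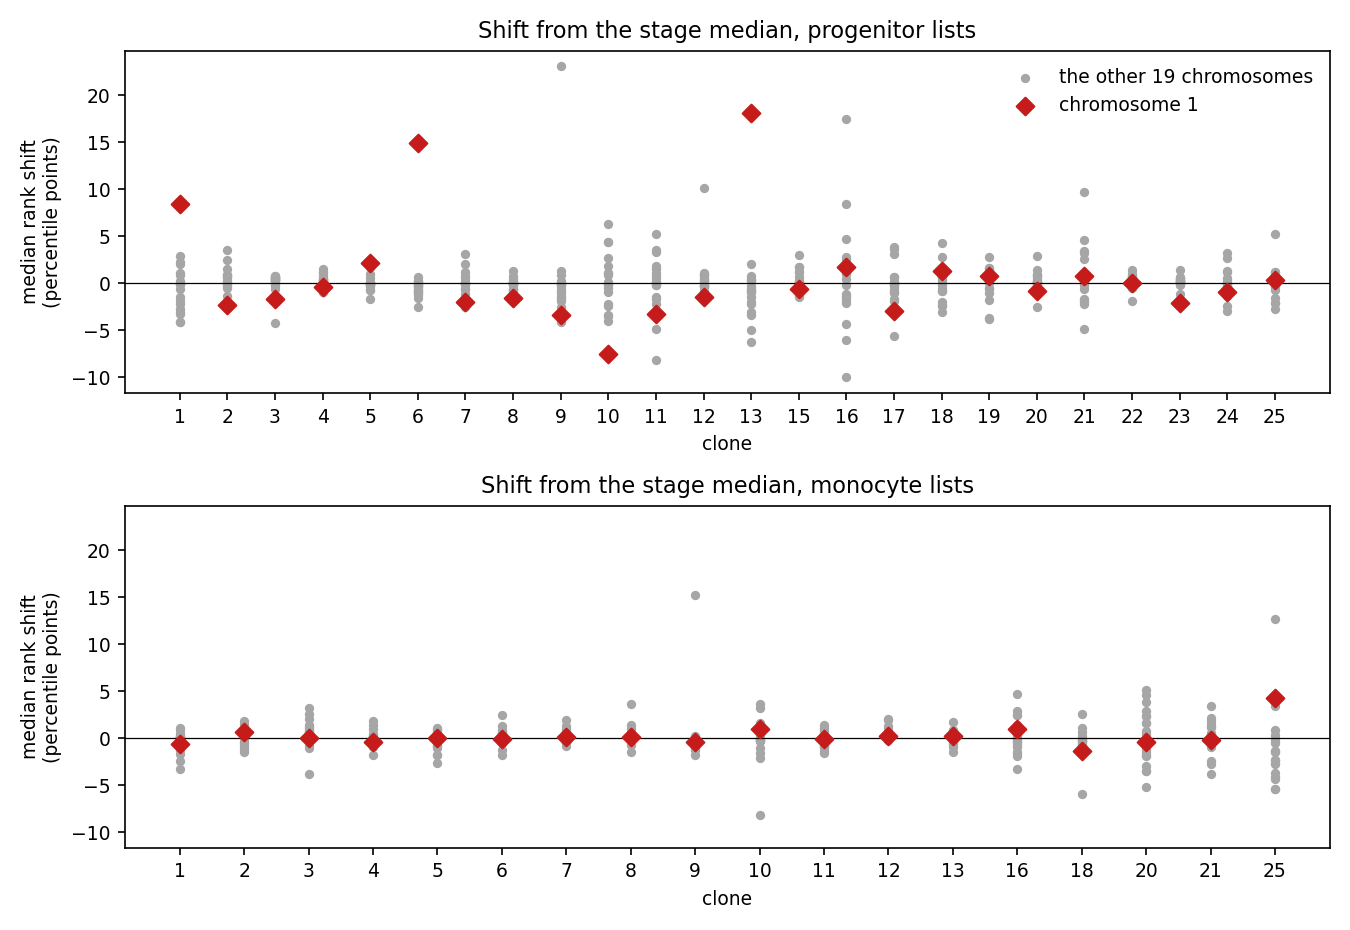
Median rank shift from the stage median (percentile points) of chromosome 1 (diamonds) and of each of the other 19 chromosomes (grey points), for 24 progenitor lists above and 18 monocyte lists below. Chromosome 1 stands apart from the other chromosomes in the progenitors of clones 1, 6 and 13 at 8.44, 14.9 and 18.1 points, and near 0 in their monocytes; single chromosomes stand as far out in other lists, such as chromosome 17 of clone 9 at 23.1 points.

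The monocytes of the same clones did not carry the shift. Chromosome 1 stood at -0.60 points in the monocyte of clone 1, -0.13 in clone 6 and 0.21 in clone 13. These values took part in the choice of the clones. The other 10 monocytes of clones 1 to 13 ran from -0.43 to 0.98 points, so clones 6 and 13 lie within their range and clone 1 lies below it. Their common regions of chromosome 1 had medians of 268, 343 and 220 tags, against 360, 943 and 1254 tags in the progenitors of the same clones. Every one of these regions had at least 48 tags in the monocytes of clones 1, 6 and 13.

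The shift was spread over most regions and was not carried by a few. In the progenitor of clone 6, 192 of the 199 regions (96.5%) stood above the stage median, in clone 13 it was 179 (89.9%) and in clone 1 147 (73.9%). On the other chromosomes the shares were 45.7%, 46.4% and 46.0%. In the other progenitors 31.2% to 64.3% of the chromosome 1 regions were above it. All 3 progenitors were above the stage median in 128 regions (64.3%), against 7.19% of the common regions elsewhere, and 0 regions were below it in all 3. These counts rest on the shifts that chose the clones and on the high share in each clone. They are no further evidence that the clones raise the same regions.

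The size of the shift varied least in clone 6. There the quartiles of the log2 shift were 0.25 and 0.44, an interquartile range of 0.19, close to the 0.20 of the other chromosomes in the same list. In clone 13 the quartiles were 0.25 and 0.62, and in clone 1 -0.01 and 0.41. The other chromosomes of those lists had interquartile ranges of 0.32 and 0.37, against 0.37 and 0.42 on chromosome 1.

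Along the chromosome, 28 windows of 5 Mb held at least 3 common regions. The progenitor of clone 6 was above 0 in all 28, from 3.73 to 22.4 points, and above every one of the other 21 progenitors in 23 of them. The progenitor of clone 13 was above 0 in 27 windows, from -0.40 to 38.2 points, and above all others in 23. In clone 1 also 27 windows were above 0, from -5.25 to 37.4 points, but it exceeded all others in only 14.

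The highest windows were not the same in the 3 clones. In clone 1 they were chr1:30000001-35000000 with 37.4 points, chr1:10000001-15000000 with 21.8 and chr1:185000001-190000000 with 18.3. In the first of these the progenitor of clone 11 stood higher still, at 52.3, and in the second that of clone 21 at 26.3. In clone 6 the highest were chr1:155000001-160000000 with 22.4 points, chr1:130000001-135000000 with 22.3 and chr1:55000001-60000000 with 22.1. In clone 13 they were chr1:35000001-40000000 with 38.2, chr1:55000001-60000000 with 29.4 and chr1:135000001-140000000 with 29.3, where the other 21 progenitors reached at most 5.87, 5.46 and 1.01.

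Some of the lowest windows were shared by a pair of the clones. In clone 1 they were chr1:105000001-110000000 with -5.25 points, chr1:75000001-80000000 with 1.09 and chr1:165000001-170000000 with 1.14. In clone 6 they were chr1:175000001-180000000 with 3.73, chr1:20000001-25000000 with 8.20 and chr1:80000001-85000000 with 8.98. In clone 13 they were chr1:185000001-190000000 with -0.40, chr1:165000001-170000000 with 2.53 and chr1:175000001-180000000 with 3.61. Percentiles have a ceiling, and the regions of chr1:175000001-180000000 stood at a mean percentile of 91.1 in progenitors. The log2 shift in that window was 0.33 in clone 6 and 0.20 in clone 13.

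Over the 28 windows the log2 profiles had Spearman correlations of 0.08 between clones 1 and 6, 0.04 between clones 1 and 13, and 0.27 between clones 6 and 13. These are descriptions over windows of the same 199 regions, ranked against the same stage median. The profiles had the sign in common and little of the finer pattern.

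**Figure D3:**
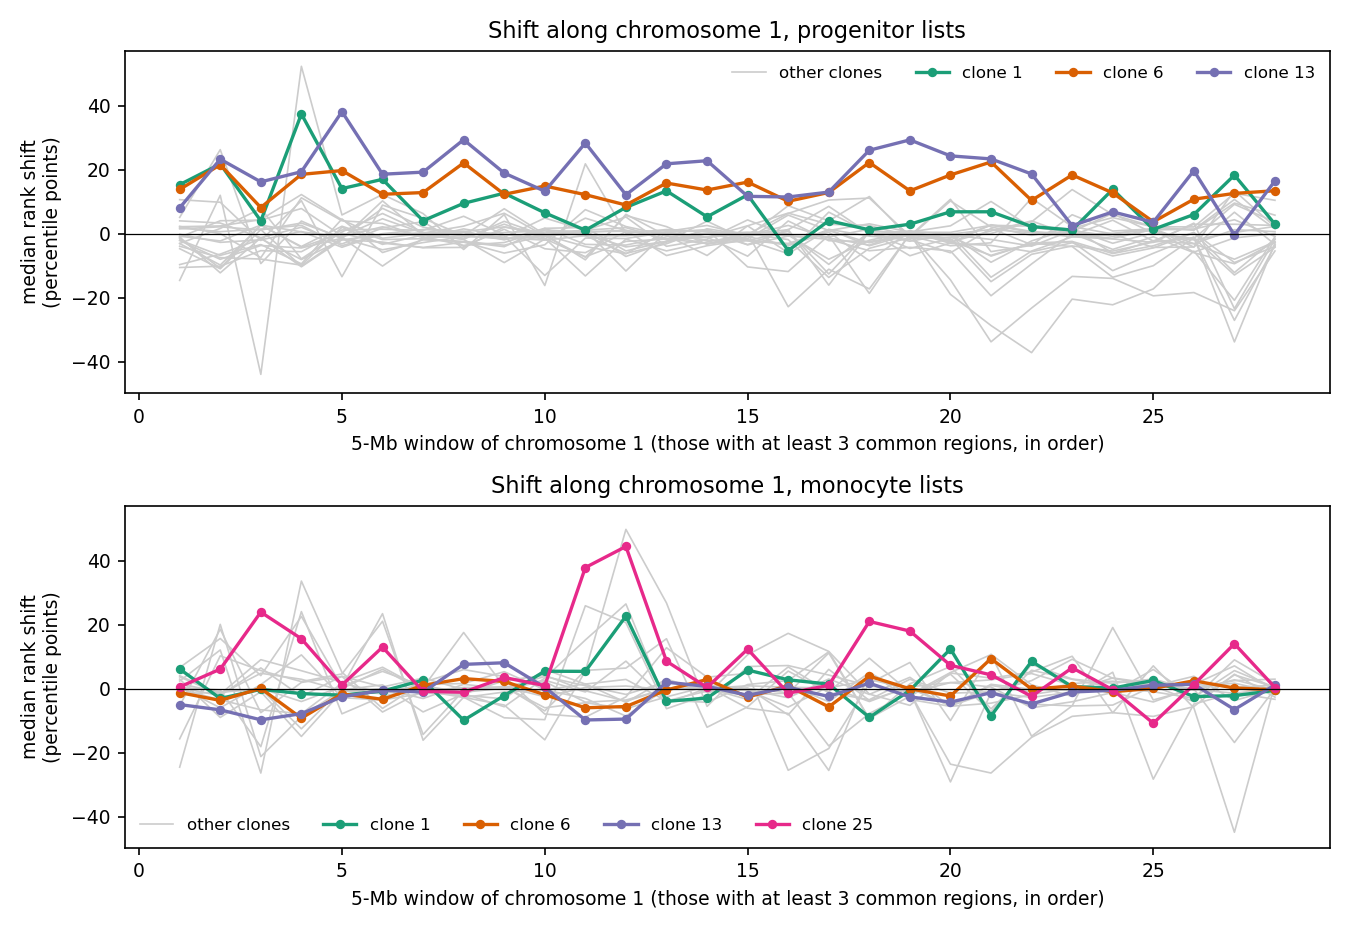
Median rank shift (percentile points) in the 28 windows of 5 Mb with at least 3 common regions, in order along chromosome 1, for progenitors above and monocytes below; coloured lines mark clones 1, 6, 13 and, in monocytes, 25, and grey lines the other clones. In progenitors the line of clone 6 stays between 3.73 and 22.4 points, and in monocytes the lines of clones 1, 6 and 13 cross 0 repeatedly.

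A denser set of 506 regions of chromosome 1, those common to all 24 progenitor lists, gave the shift in 20-Mb segments. In clone 1 the log2 shift was 0.39 in the first segment and 0.38 in the second, then 0.32, 0.22 and 0.26. It was 0.18 in chr1:120000001-140000000, and from chr1:140000001-160000000 onward 0.10, 0.09 and 0.09. These last values lay within the range of the other progenitors, which reached 0.21, 0.27 and 0.26 there. The first 100 Mb had a median of 0.29 and the rest 0.10, so the shift of clone 1 was concentrated in the proximal part. In clones 6 and 13 no such slope was seen, with 0.36 and 0.34 in clone 6 and 0.36 in both parts in clone 13. The segment chr1:100000001-120000000 holds only 8 regions, with a shift of -0.06 in clone 1, 0.23 in clone 6 and 0.21 in clone 13. The other progenitors ran from -0.28 to 0.38 in this segment, so none of these clones stood outside them.

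**Figure D4:**
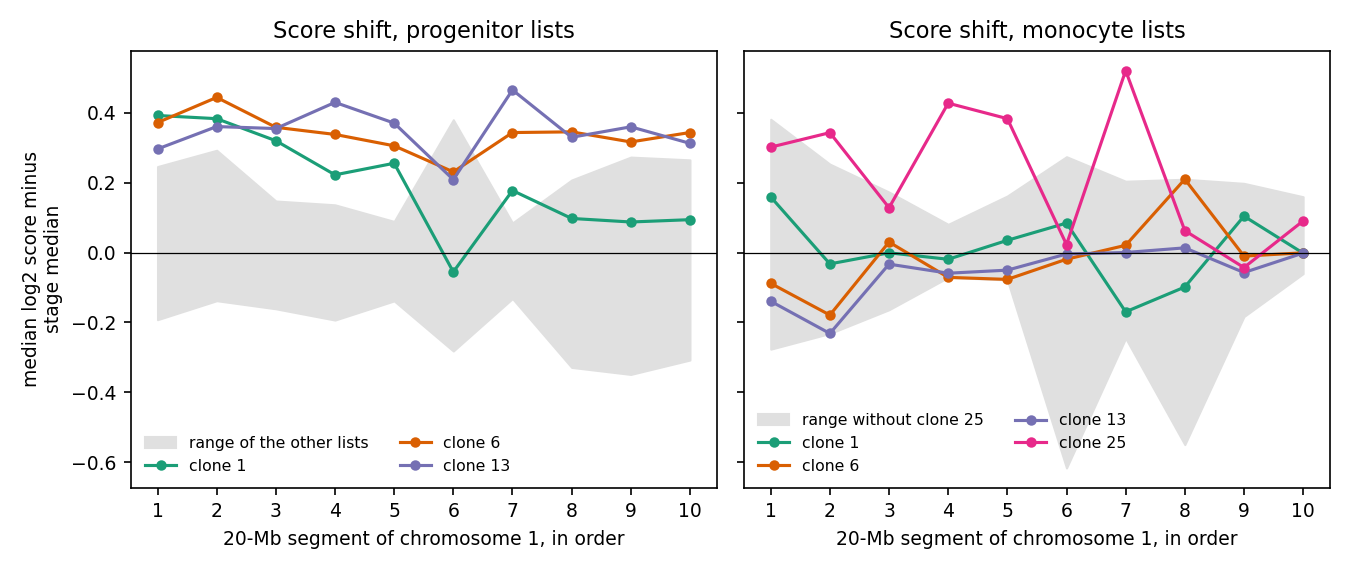
Median log2 score shift from the stage median in 10 segments of 20 Mb along chromosome 1, from 506 regions common to the progenitor lists (left) and 203 common to the 18 monocyte lists (right); the grey band spans the other progenitors, or all monocytes but clone 25. Clone 1 goes from 0.39 in the first segment to 0.09 in the last, clones 6 and 13 stay between 0.21 and 0.46, and the monocyte of clone 25 reaches 0.52.

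Other progenitors showed shifts of parts of the chromosome. In clone 10 the first 100 Mb stood at -0.02 and the rest at -0.28. Clone 16 went the other way, with 0.07 and 0.22. The progenitor of clone 11, the shortest progenitor list with 11003 peaks, had 0.11 and -0.09. The first 100 Mb minus the rest gave 0.19 in clone 1, 0.27 in clone 10 and 0.20 in clone 11, and from -0.15 to 0.27 over all 24 progenitors, so a difference of this size was not particular to clone 1.

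Numbers of peaks along the chromosome need no common regions, and they split the share of peaks given above by position. In 36 windows of 5 Mb with a median of at least 20 peaks, a list's share of peaks was divided by the median over the 24 progenitors. Clone 6 was above 1 in all 36 windows, with a median ratio of 1.15 and a range of 1.01 to 1.30. Clone 13 was above 1 in 31 windows with a median of 1.13, and clone 1 in 29 with a median of 1.06. The next highest medians were 1.04 in clones 16, 19 and 24. Clones 18 and 19 were above 1 in 25 windows each, and clones 16 and 24 in 24 each, not far below clone 1. The highest single ratio of clone 13 was 1.36 in chr1:35000001-40000000, where it had 288 peaks and its rank shift was also highest.

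The 10 regions with the largest value of the smallest shift among the 3 progenitors were singled out, which is a description of how far the shift goes in single regions. The first was chr1:36748176-36748406, at percentile 90.8 in clone 1, 74.3 in clone 6 and 84.6 in clone 13. The other 21 progenitors had a lowest percentile of 21.7, a median of 39.4 and a highest of 79.5, so only clones 1 and 13 lie above all of them. In the monocytes of clones 1, 6 and 13 it stood at 53.6, 47.9 and 38.7. The tags behind these progenitor values were 492, 908 and 1259.

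At chr1:136391081-136391591 the 3 progenitors stood at 88.4, 82.4 and 82.5, above every other progenitor, whose range was 38.3 to 81.4. Their monocytes stood at 42.8, 34.9 and 34.9. At chr1:59176583-59177137, a weaker region, they stood at 41.0, 37.2 and 56.8, again above the range of 6.72 to 31.3, and their monocytes at 7.17, 3.12 and 5.10. At chr1:9690034-9690884 they stood at 52.2, 69.2 and 58.9 against at most 41.7 in the others. At chr1:95700343-95700945 they stood at 95.1, 85.7 and 94.7 against at most 81.4, and at chr1:133034547-133035026 at 79.6, 73.1 and 93.5 against at most 70.0. In these 5 regions all 3 progenitors lie outside the range of the other 21.

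In the remaining 4 of the 10 regions the ranges overlapped. The highest of the other progenitors reached 92.0 at chr1:74282905-74283175, 78.7 at chr1:34899523-34899990, 78.7 at chr1:55293894-55294141 and 94.3 at chr1:184339057-184339328. The 10 regions lie between positions 9690034 and 184339328, so they are scattered over nearly the whole chromosome. Log2 shifts in them were 0.35 to 0.84 in clone 1, 0.35 to 0.67 in clone 6 and 0.40 to 0.79 in clone 13.

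The direction of these shifts rests on the first score. Ranked by the second score, whose meaning no header or label states, the shift of chromosome 1 was 0.43 points in clone 1, -5.88 in clone 6 and -13.4 in clone 13. In clones 6 and 13 chromosome 1 was then the lowest of the 20 chromosomes. Other progenitors ran from -3.19 to 9.32 and monocytes from -3.39 to 3.63. The rank correlation of both scores over the common regions ranged from -0.70 to 0.68 between the 42 lists, so the scores do not order regions in the same way.

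The stage comparison asks whether chromosome 1 differs between progenitors and monocytes over all clones. Chromosome 1 held 6.51% ± 0.405 of the peaks in 24 progenitor lists and 6.14% ± 0.843 in 23 monocyte lists (SD), leaving out the monocyte of clone 22. The difference of -0.368 percentage points did not pass the threshold (two-sided permutation test, p = 0.0505, adjusted p = 0.0632 over 20 chromosomes). Across the 20 chromosomes, 15 (75%) passed. The share was higher in the progenitor in 19 of 23 clones. List length was not held equal in this count or in the main test, so neither separates stage from list length. The median list had 82267 peaks in progenitors and 21029.5 in monocytes (24 lists each). In progenitors the median share was 5.84% between ranks 10000 and 20000 and 6.72% beyond rank 20000 (23 lists). In monocytes these shares were 6.425% and 6.51% (12 lists).

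That the main difference in the share of peaks missed the threshold turned on 1 library. Without the monocyte of clone 25, a comparison added after seeing the data, the difference was -0.525 (p = 1e-05, the smallest these permutations can give; adjusted p = 2.86e-05). Without clones 1, 6 and 13 it was -0.245 (adjusted p = 0.288). Within clones 1 to 13 it was -0.421 (adjusted p = 0.0424) and within clones 15 to 25 -0.302 (adjusted p = 0.555). With all lists cut to 10000 or 20000 peaks the sign turned, to 0.0607 (adjusted p = 0.807) and 0.308 (adjusted p = 0.0782). How many chromosomes passed under these settings is not given, so these calls do not set chromosome 1 apart.

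The share of the summed first score was dominated by a pair of neighbouring peaks in some lists. These regions, chr1:24619502-24619683 and chr1:24619866-24620047, were in 40 and 43 of the 48 lists, and 1 of them was the highest peak of chromosome 1 in 37. They took 10.9% of the score of all 20 chromosomes in the monocyte of clone 3 and 9.30% in that of clone 10. In the other monocytes they took at most 1.12%, and in progenitors 0.15% to 2.05%. The same 2 monocyte lists had 64.5% and 53.4% of their whole score on the mitochondrial sequence, against at most 15.9% in the other lists; the part of this in the result was not tested.

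Chromosome 1 held 6.34% ± 0.701 of the summed score in 24 progenitors and 6.14% ± 2.86 in 23 monocytes (SD). The difference of -0.197 percentage points was smaller than the spread (permutation test, p = 0.746, adjusted p = 0.786), where 11 of 20 chromosomes (55%) passed. The sign differed between blocks of clones: within clones 1 to 13 the difference was 1.13 (adjusted p = 0.768), and within clones 15 to 25, a subset chosen after seeing the data, it was -1.93 and passed the threshold (adjusted p = 9.33e-05). How many of the 20 chromosomes passed in subsets or without the pair of peaks is not given. These calls therefore do not set chromosome 1 apart. Without the pair of peaks, an alternative chosen after seeing the data, the shares were 5.91% ± 0.972 and 4.97% ± 0.919. That difference of -0.949 passed the threshold (adjusted p = 0.004), also with the stages swapped within clones as pairs (adjusted p = 0.0141). Shares of the chromosomes add up to a whole. Chromosome 2 held 9.67% ± 7.17 of the summed score in progenitors and 16.8% ± 10.1 in monocytes (SD, pair of peaks included). The part of chromosome 2 in the difference of chromosome 1 was not tested. The median chromosome 1 share without the pair was 5.51% in monocytes of clones 1 to 13. It was 4.15% in those of clones 15 to 25, clone 22 included, many of which have short lists. The part of list length in this difference was not tested. In single lists without the pair, clone 13 had 7.86%, clone 6 7.73% and clone 1 6.72%, and the highest of the other progenitors was 6.53% in clone 16.

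Single regions differed between stages in both directions. In lists cut to their 10000 highest peaks, 813 regions of chromosome 1 were held by at least 5 of 42 lists and were tested for presence. More monocyte lists held 94 of them (11.6%), where 11.5% of all 13754 regions tested in the genome were called in that direction (Fisher's exact test with an adjusted p below 0.05 by the Benjamini-Hochberg method). More progenitor lists held 107 (13.2%), against a background of 13.3%. These shares are near the background. With clones as pairs the counts were 31 and 48. Genome-wide shares are given here for the main setting only, so counts under other settings are not results about chromosome 1. The calls depended on where the lists were cut. In lists of 20000 peaks, which 12 monocytes and 23 progenitors reach, the counts were 278 and 248, and they held 26 of the 94 monocyte calls and 35 of the 107 progenitor calls, with 1 of the 94 called in the opposite direction.

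Among regions of progenitors, chr1:174443175-174443349 was in the 10000 highest peaks of 23 progenitors and 0 of 18 monocytes (Fisher's exact test, adjusted p = 4.1e-08). In the lists at full length it was a peak in 23 progenitors and 13 of 24 monocytes, and in lists of 20000 the call was lost (adjusted p = 0.515). The region chr1:13583302-13583503 was in 22 and 0 cut lists and in 23 and 7 full lists. The region chr1:84911680-84911834 was in 20 and 0 cut lists and in 23 and 9 full lists. In these regions part of the monocyte lists thus still held the peak, below rank 10000 or in lists that were too short to be cut.

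At chr1:90173766-90173987, 22 progenitors and 1 monocyte held the peak in cut lists, and 22 and 2 in full lists. Within 500 bp, however, all 24 lists of both stages had a peak, and the call was lost when peaks within 500 bp were merged. The same merging ended the calls at chr1:184055156-184055437 (2 monocytes, 23 progenitors) and chr1:184213459-184213679 (12 and 0). The other 5 progenitor regions with the largest differences were held by 21 to 23 progenitors and 1 to 2 monocytes. They start at positions 54898725, 87960859, 88338051, 134238412 and 196764977. At full length 13, 12, 7, 13 and 14 monocyte lists held them, in this order. In lists of 20000 only the call at 88338051 remained among these 5, and those at 184055156 and 184213459 were also lost.

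Among regions of monocytes, chr1:72367432-72367641 was in 14 of 18 monocytes and 0 of 24 progenitors in cut lists (adjusted p = 5e-06), and in 17 and 23 full lists. The region chr1:130487397-130487717 was in 17 and 3 cut lists, and in 19 and all 24 full lists; its call was lost in lists of 20000. Of the 10 regions with the largest differences, 4 lie close together, at chr1:182209960-182210164, chr1:182814701-182814972, chr1:182818871-182819084 and chr1:182872345-182872796. They were held by 12, 13, 16 and 13 monocytes against 0, 1, 3 and 1 progenitors in cut lists, but 23, 22, 23 and 23 progenitors held them at full length. All 4 calls were lost in lists of 20000 (Fisher's exact test, adjusted p from 0.0885 to 1). The other 3 start at positions 52712145, 134664138 and 193541799, and were held by 13, 13 and 17 monocytes against 0, 0 and 5 progenitors. At full length 22, 23 and 23 progenitors held them. In lists of 20000 the call at 52712145 was lost, that at 134664138 remained, and that at 193541799 turned to the opposite direction (adjusted p = 0.00497).

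By rank, 27 of the 199 common regions (13.6%) stood higher in monocytes, where 27.4% of all 3257 common regions did (limma, Benjamini-Hochberg adjusted p below 0.05). In progenitors 67 (33.7%) stood higher, against 26.3%. The median difference, monocyte minus progenitor, was -2.98 percentile points on chromosome 1 and 0.32 over all regions. The progenitors include those of clones 1, 6 and 13, whose ranks by the same score led to the choice of chromosome 1. The excess in progenitors and the median difference are therefore not independent of that choice. Without clones 1, 6 and 13 the counts were 34 and 59, and 59 of the 67 regions were called again. Ranked by the second score they were 49 and 26, and 17 of the 67 were then called in the opposite direction. Genome-wide shares under these settings are not given, so the counts do not show how much of the excess in progenitors remained.

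The largest difference in favour of monocytes was at chr1:75139141-75139534. Its percentile had a lowest, median and highest value of 0.7, 14.5 and 92.7 in 24 progenitors and 69.3, 85.8 and 99.0 in 18 monocytes. The ranges overlap through the upper progenitor values, and 17 of 18 clones with both lists stood higher as monocytes. The difference was 64.2 points (SE 5.17, limma, adjusted p = 1.78e-13).

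Next came chr1:34899523-34899990 with 32.8 points, 27.4 ± 18.7 in progenitors and 60.2 ± 22.4 in monocytes (SD), and chr1:52557086-52557515 with 32.3. The first of these is also among the 10 regions with the largest shifts in the progenitors of clones 1, 6 and 13. Within clones 1 to 13 it did not pass the threshold. The region chr1:74282905-74283175, likewise among those 10, stood 19.9 points higher in monocytes (limma, adjusted p = 0.000255), with a progenitor median of 61.1 and a monocyte median of 87.6. The other 6 regions, starting at positions 37486797, 74438009, 95698343, 135975645, 136351935 and 183772428, stood 18.0 to 24.8 points higher, and the weakest of them, at 136351935, also missed the threshold within clones 1 to 13. Ranked by the second score, the region at 136351935 was called in the opposite direction, at -31.6 points (limma, adjusted p = 0.00222). The largest one, at 75139141, then had 9.92 points and lost its call (limma, adjusted p = 0.271). Of the 10 regions, only those at 74282905, 135975645 and 183772428 kept the call by the second score.

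The largest difference in favour of progenitors was at chr1:80337046-80337660. Progenitors had a lowest, median and highest percentile of 67.9, 89.5 and 98.5, and monocytes of 11.6, 32.7 and 96.9. The difference, monocyte minus progenitor, was -46.0 points, with means of 87.1 ± 9.05 and 41.1 ± 29.0 (SD) and a standard error of 6.04 (limma, adjusted p = 2.38e-08). The progenitor stood higher in 16 of 18 clones. The region chr1:132922355-132922758 had medians of 58.1 and 7.4, and chr1:74634585-74634940 of 71.5 and 25.6.

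At chr1:163181077-163181567 and chr1:107560118-107560586 all 18 clones with both lists stood higher as progenitors. Their medians were 59.6 and 14.4, and 65.1 and 32.8. The other 5 of the 10 regions, starting at positions 9738383, 21069221, 39424552, 64579261 and 174078023, had differences of -31.7 to -37.9 points. All 10 passed in the log2 scale, with clones as pairs, within clones 1 to 13 and without clones 1, 6 and 13. Ranked by the second score, only those at 132922355 and 74634585 kept the call. The region with the largest difference, at 80337046, was then called in the opposite direction with 19.7 points (limma, adjusted p = 0.0265), as was that at 21069221 with 28.9 (limma, adjusted p = 0.00301), and the other 6 were not called. Ranges of progenitors and monocytes overlapped in each of the 20 regions named by rank.

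Windows of 5 Mb were medians of the same region ranks in the same lists, so they are not independent of the contrast by region. Of the 28 windows, 1 (3.57%) stood higher in monocytes, where 20.3% of 359 windows in the genome did (two-sided permutation test, Benjamini-Hochberg adjusted p below 0.05). Higher in progenitors were 11 (39.3%), against a background of 30.1%. These progenitors include those of clones 1, 6 and 13, whose ranks led to the choice of chromosome 1. The tilt of the windows toward progenitors is therefore not independent of that choice. Without clones 1, 6 and 13 the counts were 4 and 8. When ranks were centred within each chromosome, an alternative chosen after seeing the data, the counts were 9 and 4. Genome-wide shares are not given beside these alternative counts. This centring removes the level of the chromosome as a whole from each list.

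The largest differences were in chr1:105000001-110000000, with mean percentiles of 69.8 ± 11.0 in progenitors and 38.7 ± 12.4 in monocytes (SD), and chr1:20000001-25000000, with 79.5 ± 14.3 and 48.7 ± 13.5. Both had an adjusted p of 5.8e-05 and stood higher in the progenitor in 18 and 15 of 18 clones. They hold 4 and 3 common regions, and the pair of peaks described above is not among these. Next were chr1:70000001-75000000 with -13.8 points, chr1:160000001-165000000 with -13.4 and chr1:150000001-155000000 with -13.3. The call in chr1:160000001-165000000 was lost within clones 1 to 13 and after centring.

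The single window higher in monocytes was chr1:30000001-35000000, with 38.4 ± 15.4 in progenitors and 48.9 ± 12.4 in monocytes (SD, adjusted p = 0.0428). It stood higher in the monocyte in 11 of 18 clones. The call was lost with clones as pairs (adjusted p = 0.186), within clones 1 to 13 and without the monocyte of clone 25. The same window has the highest shift of the progenitor of clone 1.

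**Figure D5:**
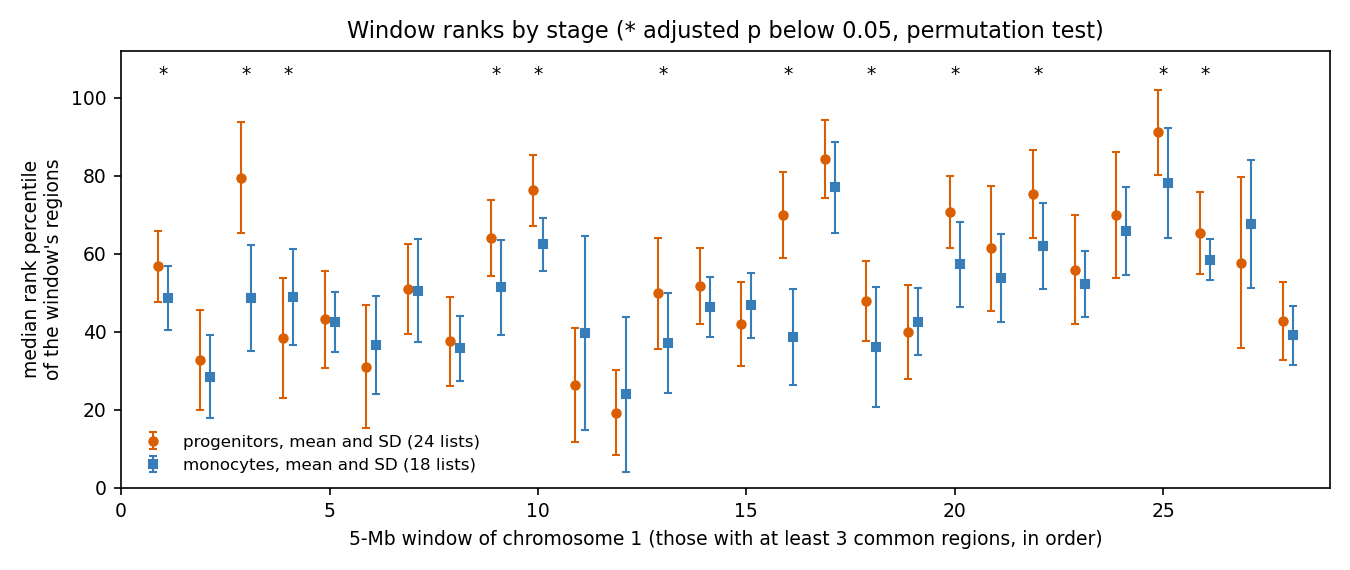
Median rank percentile of the common regions in each of 28 windows of 5 Mb along chromosome 1, as mean and SD over 24 progenitor lists (circles) and 18 monocyte lists (squares); asterisks mark adjusted p below 0.05. Progenitors stood higher in 11 marked windows and monocytes in 1, and the widest differences, monocyte minus progenitor, were -31.2 and -30.8 points. The progenitor lists include those of clones 1, 6 and 13, whose ranks led to the choice of chromosome 1.

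The monocyte of clone 25 had the highest chromosome 1 shift of the 18 ranked monocytes. Its share of peaks was 9.60%, the highest of all 48 lists, and that of its progenitor was 6.12%. Among single-list regions, 16.8% of 2808 lay on chromosome 1, against 3.71% to 14.1% in the other 21 monocytes with at least 50 such regions. Its shift was 4.29 points, or 0.28 on the log2 scale, where its progenitor had 0.29 points. Of its common regions of chromosome 1, 116 (58.3%) stood above the stage median, against at most 53.8% in the other ranked monocytes. The interquartile range of their log2 shift was 0.78, and 0.83 on the other chromosomes of the list. Chromosome 17 stood higher in this list with 12.6 points, so chromosome 1 was second of 20. The other chromosomes lay between -5.47 and 12.6 points, so chromosome 1 lies inside their range. Chromosome 5 stood at 3.36 points. Chromosomes 3 and 19, at -5.47 and -5.42, were displaced further than chromosome 1 in the other direction.

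In this monocyte the log2 shift was uneven along the chromosome. It was 0.43 in chr1:60000001-80000000, 0.38 in chr1:80000001-100000000 and 0.52 in chr1:120000001-140000000. It was -0.04 in chr1:160000001-180000000 and 0.09 in the last segment. The highest windows were chr1:80000001-85000000 with 44.4 points and chr1:75000001-80000000 with 37.8. In the first of these the monocyte of clone 20 stood higher, at 49.8. The list has 15133 peaks and a median of 52.9 tags in the common regions of chromosome 1, and it lacks both peaks of the pair that 43 of the 48 lists hold in part or in whole.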

How the data were processed

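ATAC-seq peak lists of 48 libraries, 24 progenitor and 24 monocyte, were taken as deposited. Reads were aligned with BWA to mm9, per the submitters' processing notes. For the peak caller, the read filters, any shift for the transposase and the meaning of both scores, the method is not given in the sources used here. Every deposited file has no header and gives a position and a pair of scores per peak. Of the first scores below 40 steps, 90.9% to 100% per list were whole multiples of the list's step, to a tolerance of 0.1 step. Depth in reads is unknown.

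Of all peaks, 5009 (0.212%) lay on mitochondrial, Y or unplaced sequences and were left out of the shares. Lists with at least 1000 peaks entered the shares and lists with at least 10000 the ranks and cut lists. Peaks were merged at 1 bp of overlap, and a region's score in a list is that of its highest peak. Shares and 5-Mb windows with at least 3 common regions were compared by two-sided permutation tests with 100000 resamples, presence by Fisher's exact test and rank percentiles by limma 3.58.1 in R 4.3.3. All p-values were adjusted by the Benjamini-Hochberg method over the whole genome, with a threshold of 0.05. The unpaired tests of peak shares, windows, presence and ranks, and the paired test of windows, were checked on simulated data. Those values were drawn independently for each feature and library, without clone pairs. The share of summed score and the other paired tests were not simulated.

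The main fits leave out the clone. Pairing comes from the design, in which both libraries of a number are of 1 clone, and the blocked fits are alternatives. P-values measure the spread between clones, which includes technical spread between libraries, since no clone was measured again at a stage. Alternatives were list length, the second score, the log2 scale, merging across 500 bp, window size and subsets of clones.

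The clones of interest, the lists and the rules for naming were chosen with earlier results of these data known. Windows and regions named are the 3 highest and 3 lowest windows of each progenitor of interest, the 10 regions with the largest smallest shift, up to 10 regions per direction by rank and by presence, and the 5 largest windows per direction. Lists of genes on chromosome 1 were not used, since no mm9 annotation was used here, and no sequence is printed. Naming codes in the names of progenitor files were used only to pick a subset of clones.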

Additional observations from a re-analysis of the deposited data

How the results depend on the processing

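For the share of peaks (-0.368), the fit with clones as a replicate block gave -0.365 (adjusted p = 0.0915). The sign turned with lists of 10000 (0.0607) and 20000 peaks (0.308), and the threshold was passed within clones 1 to 13 (-0.421), within the commonest naming code (-0.527, adjusted p = 0.000743) and without the monocyte of clone 25 (-0.525). For the share of summed score (-0.197) the block gave -0.199. The sign turned with lists of 10000 (0.377), without clones 1, 6 and 13 (0.0137), within clones 1 to 13 (1.13) and within the commonest naming code (0.318). The threshold was passed within clones 15 to 25 (-1.93), without the pair of peaks (-0.949) and without it in pairs (-0.947). For the shares, the number of other chromosomes that passed under each alternative setting is not given.

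Presence calls (94 monocyte, 107 progenitor) were 31 and 48 with the replicate block, 36 and 71 in lists of 5000, 278 and 248 in lists of 20000, 162 and 217 by the second score, and 50 and 48 within clones 1 to 13. Rank calls (27 and 67) were 49 and 26 by the second score, and 17 and 60 within clones 1 to 13. The window called higher in monocytes (1) became 0 with the block, in 10-Mb windows, within clones 1 to 13 and without the monocyte of clone 25, 2 on the log2 scale, 4 without clones 1, 6 and 13, and 9 after centring. Windows higher in progenitors (11) became 7 in 10-Mb windows and 4 after centring. The block changed no other call among the shares and the counts of rank and window calls by over 1.5 times. No genome-wide share is set beside the counts under these settings. The number tested can differ with list length, merging and window size, so the counts alone give no result about chromosome 1.

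Shifts in clones 1, 6 and 13 were 5.58, 9.81 and 11.3 points over regions common to progenitors, and 0.43, -5.88 and -13.4 by the second score. Against the median without these clones, clone 13 had 20.5. The causes were not tested. The 6 monocyte lists with fewer than 10000 peaks entered no ranks, and few tags limit the precision of ranks in others: over the common regions of chromosome 1 the medians were 15.0 to 52.9 tags in the monocytes of clones 3, 10, 16, 18, 20, 21 and 25 and 33.0 to 44.0 in the progenitors of clones 11, 21 and 25, against at least 220 tags in the other monocytes ranked.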
